A study of Homo sapiens with 2 samples.

Results

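The 10 genes described here belong to the actin cytoskeleton and were examined in HCT116 cells, a human colon cancer cell line, by single-cell RNA sequencing (scRNA-seq) with a 3′ kit that tags each captured molecule with a unique molecular identifier (UMI). DAC (decitabine), a nucleoside analog that inhibits DNA methyltransferases, was used at 0.5 μM. The 7-day culture held 2 additions of DAC (days 1 and 3) and a drug-free period from day 5 until the harvest on day 7. Mock-treated HCT116 cells were the control, and each condition had 1 library. The genes were ACTB, ACTG1, TAGLN, TAGLN2, TPM1, TPM2, TPM4, MYL9, CNN2, and CFL1, which were 10 of the 33538 genes listed in both libraries. They were selected on their UMIs, their share of cells, and their per-cell correlation with ACTB in these same libraries, so these values are given as a description, without a test. With 1 library per condition, the treatment and the library cannot be told apart, and the intervals below (95%) cover counting error only.

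Depth differed, with 49911689 UMIs over 1783 mock-treated cells (median 27899 per cell) and 59046165 UMIs over 1751 DAC-treated cells (median 35340 per cell). Levels are therefore given as CPM, the share of a gene in all UMIs of its library, scaled so that a library sums to 1000000. A 3′ UMI counts a molecule once, so levels of different genes were not scaled to length. The median log2 CPM ratio of the 12825 genes that reached 100 UMIs in at least 1 library was 0.25, so that a gene at the all-gene median was already slightly above 1-fold. Median-of-ratios scaling, an alternative that centers the typical gene, lowered every log2 CPM ratio by 0.24. Values at equal depth come from 1298 mock-treated and 1120 DAC-treated cells with at least 10000 UMIs and at most 50% mitochondrial UMIs, each thinned at random to 10000 UMIs. The epithelial markers KRT8, KRT18, and KRT19 were high in both libraries (KRT8, 1094 and 1895 CPM), and EPCAM was at 349.0 and 221.8 CPM. KRT20 had 27 and 599 UMIs, an 18.8-fold ratio (12.8 to 28.7). Other colon epithelium markers had low levels in both libraries, with CDH1 at 23.1 and 21.1 CPM and CDX2 at 8.78 and 12.9 CPM. VIL1 had 37 and 62 UMIs. No cell type without the actin cytoskeleton genes described here was present that could give the share of cells with a UMI from free RNA.

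Actin monomers polymerize into filaments whose stability and tension depend on the proteins bound to them. ACTB and ACTG1 encode the cytoplasmic β- and γ-actins, tropomyosins (TPM genes) lie along the filament, and transgelins (TAGLN genes) and calponins (CNN genes) bind and stabilize it. MYL9 encodes a regulatory light chain of myosin II, the motor that pulls filaments, and cofilin (CFL1) severs filaments and returns monomers to the pool. Many of these genes are known targets of SRF, a transcription factor that binds the CArG box and whose cofactors MRTFA and MRTFB sense free actin monomers.

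To show where such a sequence lies, the RefSeq promoters (GRCh38.p14, 250 bases before to 50 bases after each start) were searched on both strands for the CArG box. Of the 10 genes, 7 were matched (all except ACTB, TAGLN, and MYL9), with 12 promoters. A CArG box was found in 3 of the 12 promoters, and in 1.29% of all 35116 promoters. The 250 bases before the start of these 3 are given below, with the CArG box in capitals. They lie at chr17:81512800-81513049 on the minus strand (ACTG1), chr19:1026358-1026607 on the plus strand (CNN2), and chr19:16067288-16067537 on the plus strand (TPM4, 1 of its 3 starts).
ACTG1: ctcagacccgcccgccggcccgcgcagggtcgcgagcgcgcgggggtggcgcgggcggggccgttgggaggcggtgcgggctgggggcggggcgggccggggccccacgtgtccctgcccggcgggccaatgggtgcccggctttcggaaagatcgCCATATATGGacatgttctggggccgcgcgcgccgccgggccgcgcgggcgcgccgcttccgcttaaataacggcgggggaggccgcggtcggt
CNN2: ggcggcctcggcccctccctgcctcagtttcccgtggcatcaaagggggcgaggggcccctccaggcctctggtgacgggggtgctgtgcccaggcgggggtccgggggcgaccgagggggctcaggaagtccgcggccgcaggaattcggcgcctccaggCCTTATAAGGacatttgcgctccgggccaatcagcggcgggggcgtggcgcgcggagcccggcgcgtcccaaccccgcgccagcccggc
TPM4: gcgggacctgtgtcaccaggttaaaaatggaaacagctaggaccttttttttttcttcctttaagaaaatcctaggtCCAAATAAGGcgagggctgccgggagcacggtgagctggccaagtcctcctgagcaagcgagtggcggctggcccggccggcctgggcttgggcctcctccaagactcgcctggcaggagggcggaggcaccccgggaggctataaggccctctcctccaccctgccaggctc
The box began 94 bases before the start in ACTG1, 89 bases before it in CNN2, and 173 bases before it in TPM4. A match describes these letters only, and binding or methylation at them was not measured here. The printed promoter of ACTG1 held 43 CpG sites, that of CNN2 held 28, and that of TPM4 held 11.

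Of the 10 genes, 8 had a CPM at least 1.5-fold higher in the DAC-treated library and none was at least 1.5-fold lower. Among all 12825 genes, 31.3% were at least 1.5-fold higher and 13.7% were at least 1.5-fold lower, and since the genes were selected on this contrast nothing is read from the difference. The median log2 CPM ratio of the 10 genes was 1.04 (range, 0.22 to 4.45). Together they held 214055 of the UMIs of the mock-treated library (0.429%) and 404046 of those of the DAC-treated library (0.684%). The genes just inside and outside the 1.5-fold threshold were CFL1 (1.65-fold) and ACTG1 (1.30-fold).

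**Figure D1:**
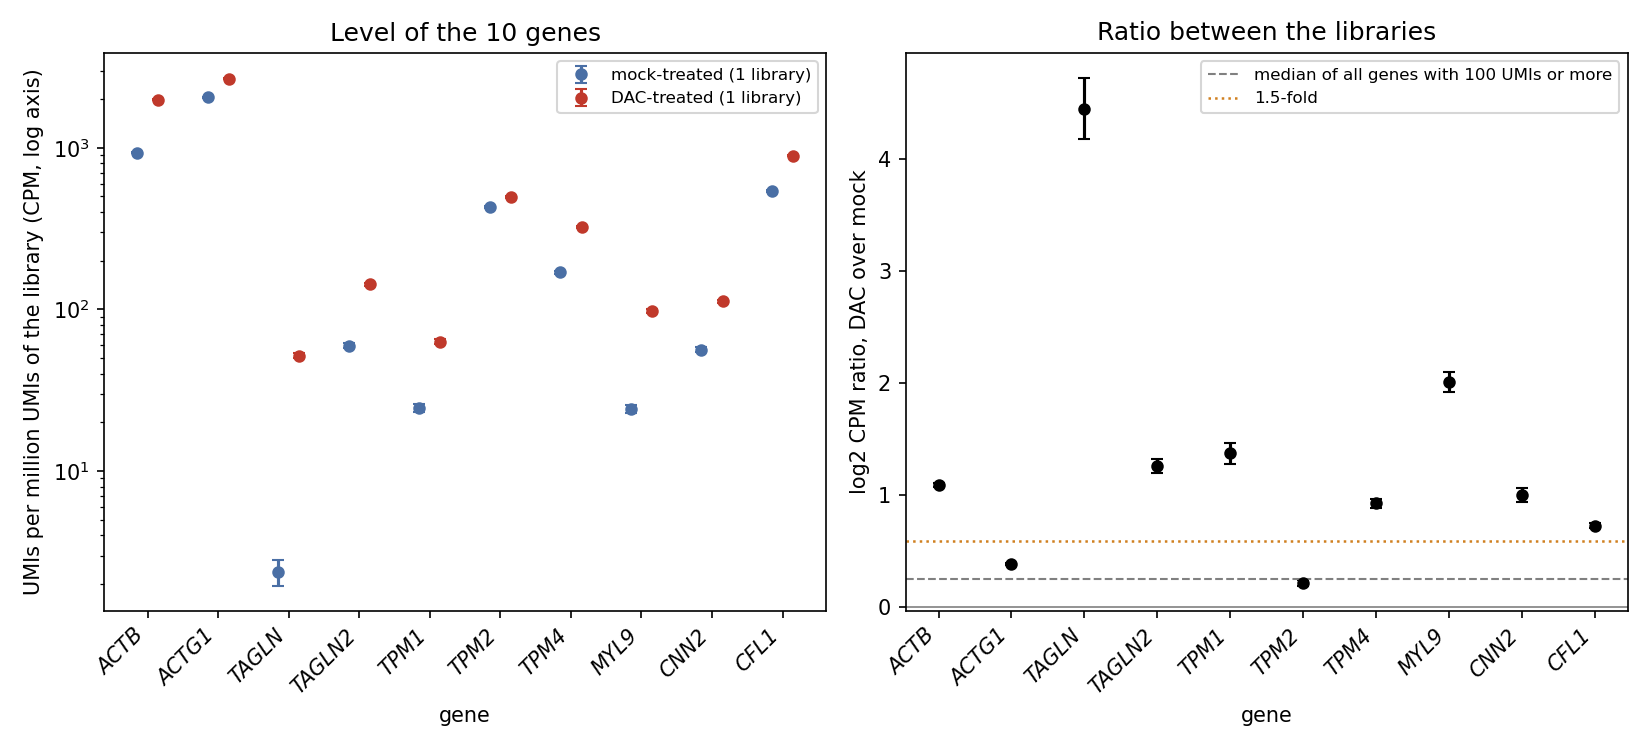
CPM of the 10 genes in the mock-treated (blue) and DAC-treated (red) library on a log axis, and their log2 CPM ratio (DAC over mock), with 95% intervals for counting error and 1 library per condition. TAGLN stands highest by ratio (21.8-fold) and MYL9 next (4.03-fold), while TPM2 (1.16-fold, 0.985-fold under median-of-ratios scaling) lies below the all-gene median.

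The cytoplasmic actins differed from each other. ACTB (chr7:5526409-5563902, minus strand, hg38) had 46510 UMIs in mock-treated and 117283 UMIs in DAC-treated cells, or 931.8 and 1986 CPM, a ratio of 2.13 (2.11 to 2.15). ACTG1 (chr17:81509413-81523847, minus strand) had 102439 and 158014 UMIs, or 2052 and 2676 CPM, a ratio of 1.30 (1.29 to 1.31). ACTB thus had the larger ratio, while ACTG1 had the higher level in both libraries. ACTB made up 31.2% (31.0 to 31.5%) of cytoplasmic actin UMIs in the mock-treated library and 42.6% (42.4 to 42.8%) in the other. Within cells at 10000 UMIs, the median share of ACTB was 31.0% and 43.9%, and 117 mock-treated cells (9.01%) and 328 DAC-treated cells (29.3%) had more ACTB than ACTG1 UMIs. The difference was therefore seen in single cells and not in the pooled sum alone. Both genes encode near-identical proteins and have processed pseudogenes. How reads matching more than 1 gene were assigned is not given in the sources used here, so the split between ACTB and ACTG1 is uncertain.

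The ACTB counts per cell were compared among the cells thinned to 10000 UMIs (1298 mock-treated and 1120 DAC-treated cells), and the 485 and 631 cells left out by the filters on UMIs and mitochondrial share have no such value. The median was 9 UMIs in mock-treated and 19 UMIs in DAC-treated cells, and the 10th percentile of DAC-treated cells (9 UMIs) equaled the median of mock-treated cells. The 90th percentile of mock-treated cells was exceeded by 62.8% of DAC-treated and 8.40% of mock-treated cells. For ACTG1, the medians were 19 and 24 UMIs, and 23.8% of DAC-treated cells exceeded the mock-treated 90th percentile.

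CFL1 and TPM4 were detected in most cells of both libraries and had intermediate ratios. CFL1 (chr11:65823022-65862026, minus strand) had 26926 and 52706 UMIs, or 539.5 and 892.6 CPM, a ratio of 1.65 (1.63 to 1.68). At 10000 UMIs its median was 5 UMIs in mock-treated and 9 UMIs in DAC-treated cells, and 46.5% of DAC-treated cells exceeded the mock-treated 90th percentile. CFL1 was the only gene of the 8 that was no longer past 1.5-fold under median-of-ratios scaling (1.40-fold). Within its family, CFL1 held 66.2% of UMIs in mock-treated and 69.3% in DAC-treated cells, beside CFL2 and DSTN.

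The 4 tropomyosin genes did not change in proportion. TPM1 (chr15:63042620-63071915, plus strand) had 1218 and 3732 UMIs, or 24.4 and 63.2 CPM, a ratio of 2.59 (2.43 to 2.77). TPM4 (chr19:16067021-16103002, plus strand) had 8490 and 19071 UMIs, or 170.1 and 323.0 CPM, a ratio of 1.90 (1.85 to 1.95). TPM2 (chr9:35681992-35690056, minus strand) had 21359 and 29360 UMIs, or 427.9 and 497.2 CPM, a ratio of 1.16 (1.14 to 1.18) that became 0.985 under median-of-ratios scaling. TPM2 thus had no stable direction, while TPM1 and TPM4 were higher under both scalings (2.20-fold and 1.61-fold under median-of-ratios). TPM3, the family member outside the 10 genes, was 2.16-fold higher. TPM2 held 50.9% of tropomyosin UMIs in mock-treated and 36.8% in DAC-treated cells, whereas the share of TPM3 was 25.9% and 34.7%, that of TPM4 was 20.2% and 23.9%, and that of TPM1 was 2.90% and 4.67%.

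**Figure D2:**
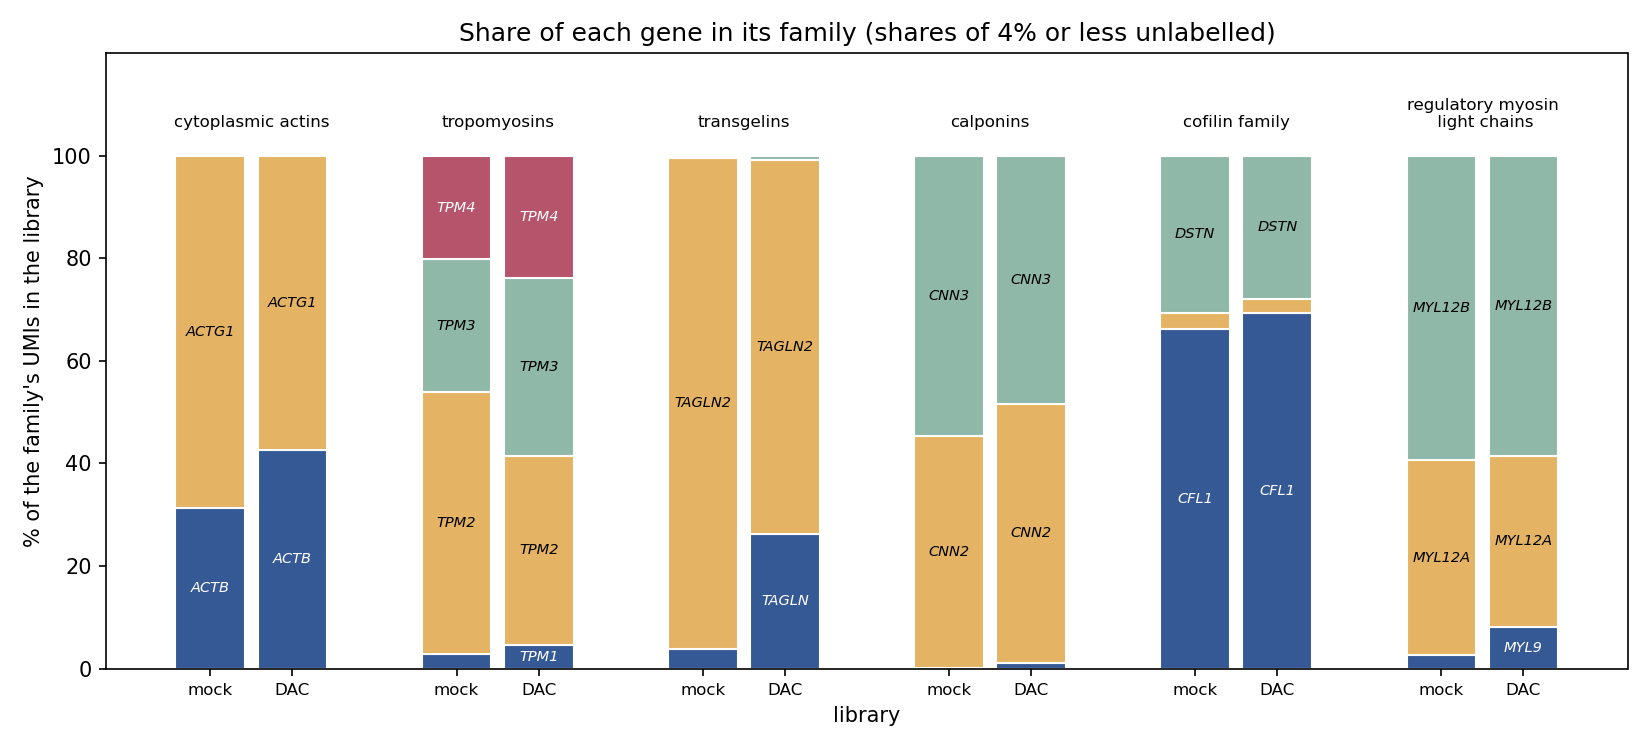
Share of each gene in the UMIs of its family, in percent, with 1 bar for the mock-treated and 1 for the DAC-treated library. ACTB goes from 31.2% to 42.6% of the cytoplasmic actins, TPM2 goes from 50.9% to 36.8% of the tropomyosins, and TAGLN from 3.80% to 26.3% of the transgelins.

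TAGLN and MYL9, genes known for their high level in smooth muscle, had the largest ratios. TAGLN (chr11:117199370-117207464, plus strand) had 118 UMIs in mock-treated and 3044 UMIs in DAC-treated cells, or 2.36 and 51.6 CPM, a ratio of 21.8 (18.1 to 26.4). MYL9 (chr20:36541497-36551447, plus strand) had 1210 and 5766 UMIs, or 24.2 and 97.7 CPM, a ratio of 4.03 (3.79 to 4.29). Both were still far less abundant in DAC-treated cells than the actins. TAGLN2 (chr1:159918107-159925507, minus strand), the transgelin of nonmuscle cells, had 2977 and 8438 UMIs, or 59.6 and 142.9 CPM, a ratio of 2.40 (2.30 to 2.50). CNN2 (chr19:1026586-1039068, plus strand), a calponin of nonmuscle cells, had 2808 and 6632 UMIs, or 56.3 and 112.3 CPM, a ratio of 1.996 (1.91 to 2.09). TAGLN held 3.80% of transgelin UMIs in mock-treated and 26.3% in DAC-treated cells, and MYL9 held 2.57% and 8.12% of the UMIs of the regulatory light chains, beside MYL12A and MYL12B.

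The share of cells with a UMI was highest for the actins. ACTB was detected in 89.1% of mock-treated and 92.7% of DAC-treated cells, and ACTG1 in 95.2% and 96.6%. CFL1 (83.1% and 85.2%), TPM2 (83.7% and 85.7%), and TPM4 (77.7% and 77.9%) were found in most cells of both libraries. TAGLN2 was found in 60.8% and 67.2% of cells, CNN2 in 61.9% and 66.5%, TPM1 in 42.5% (40.2 to 44.8%) and 58.5% (56.1 to 60.8%), and MYL9 in 41.1% (38.8 to 43.4%) and 60.4% (58.1 to 62.7%). At 10000 UMIs, where depth no longer differed, the share was 45.6% and 67.5% for TAGLN2, 42.0% and 64.5% for CNN2, 23.3% and 42.2% for TPM1, and 21.3% and 50.6% for MYL9. It was 76.7% (74.3 to 79.0%) and 88.6% (86.6 to 90.4%) for TPM4, and 98.9985% and 99.1% for CFL1. For TPM2 the share was 98.1% (97.2 to 98.7%) and 95.6% (94.3 to 96.7%), which goes against its CPM, so no order was read from it.

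TAGLN UMIs were concentrated in a fraction of DAC-treated cells. A TAGLN UMI was found in 6.39% of mock-treated cells (5.30 to 7.63%) and 26.9% of DAC-treated cells (24.8 to 29.0%), and at 10000 UMIs in 2.54% and 16.1%. Of the mock-treated cells with a UMI, 111 had 1, 2 had 2, and 1 had 3. Of the DAC-treated cells, 243 had 1, 70 had 2, and 158 had 3 or more. In DAC-treated cells 1280 cells had no TAGLN UMI, compared with 605.6 cells if the UMIs had been spread in proportion to the depth of each cell, whereas in mock-treated cells the numbers were 1669 and 1670.5. With 118 UMIs in all, the mock-treated numbers say little about the spread there. The 605.6 includes the UMIs of 1 cell that held 26.0% of the TAGLN UMIs of its library. At least 10 TAGLN UMIs were found in 55 DAC-treated cells (3.14%, 2.37 to 4.07%) and in 0 of 1783 mock-treated cells (upper bound, 0.207%). Cells without a UMI exceeded this proportion for the other 9 genes in both libraries, for example for ACTB (194 and 88.4 in mock-treated, 127 and 60.3 in DAC-treated cells), MYL9 (1050 and 996.5, 693 and 432.3), and TPM2 (291 and 144.1, 251 and 209.6). The share of cells with 3 UMIs or more was 6.11% and 38.4% for MYL9 and 78.5% and 79.4% for ACTB, whereas for CFL1 (74.6% and 69.5%) and TPM2 (73.9% and 69.8%) it went against the CPM, so no order was read from it.

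A single DAC-treated cell held 792 TAGLN UMIs, which was 26.0% of all TAGLN UMIs in its library, and the next cells had 153 and 104. The 10 cells with the most held 47.2%. Without the single highest cell, the library had 2252 TAGLN UMIs and the log2 CPM ratio was 4.01 instead of 4.45. The average of per-cell CPM, which gives each cell equal weight, gave a log2 ratio of 3.77. The cell had 102684 UMIs in all, 16.7% of them mitochondrial, and 3 DAC-treated cells had more UMIs. It also held the highest UMI count in the library for ACTB (625), ACTG1 (1035), TPM2 (266), TPM4 (141), and MYL9 (166), and for CALD1 (101), the gene of the actin-binding protein caldesmon. It held 27 of the 143 UMIs of CNN1, the smooth muscle calponin, and 5 of the 25 UMIs of ACTG2, also the highest counts in the library. These counts are not corrected for its depth. By CPM, 5 kept cells were higher for ACTB, 8 for ACTG1, 2 for TPM2, 0 for TPM4, and 0 for MYL9. The number was 1 for CALD1, 3 for ACTG2, 0 for CNN1, 2 for TPM1, 12 for CFL1, and 161 for CNN2. In contrast, the cell had 6 TAGLN2 UMIs, with a higher TAGLN2 CPM in 853 of the kept cells. The smooth muscle genes MYH11 and ACTA2 and the fibroblast gene COL1A1 were at 0 in this cell, DES was at 2, and the epithelial genes KRT8, KRT18, and EPCAM were at 391, 747, and 33 UMIs. Whether it was a doublet was not tested, since both cells of such a pair would be of the same line.

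**Figure D3:**
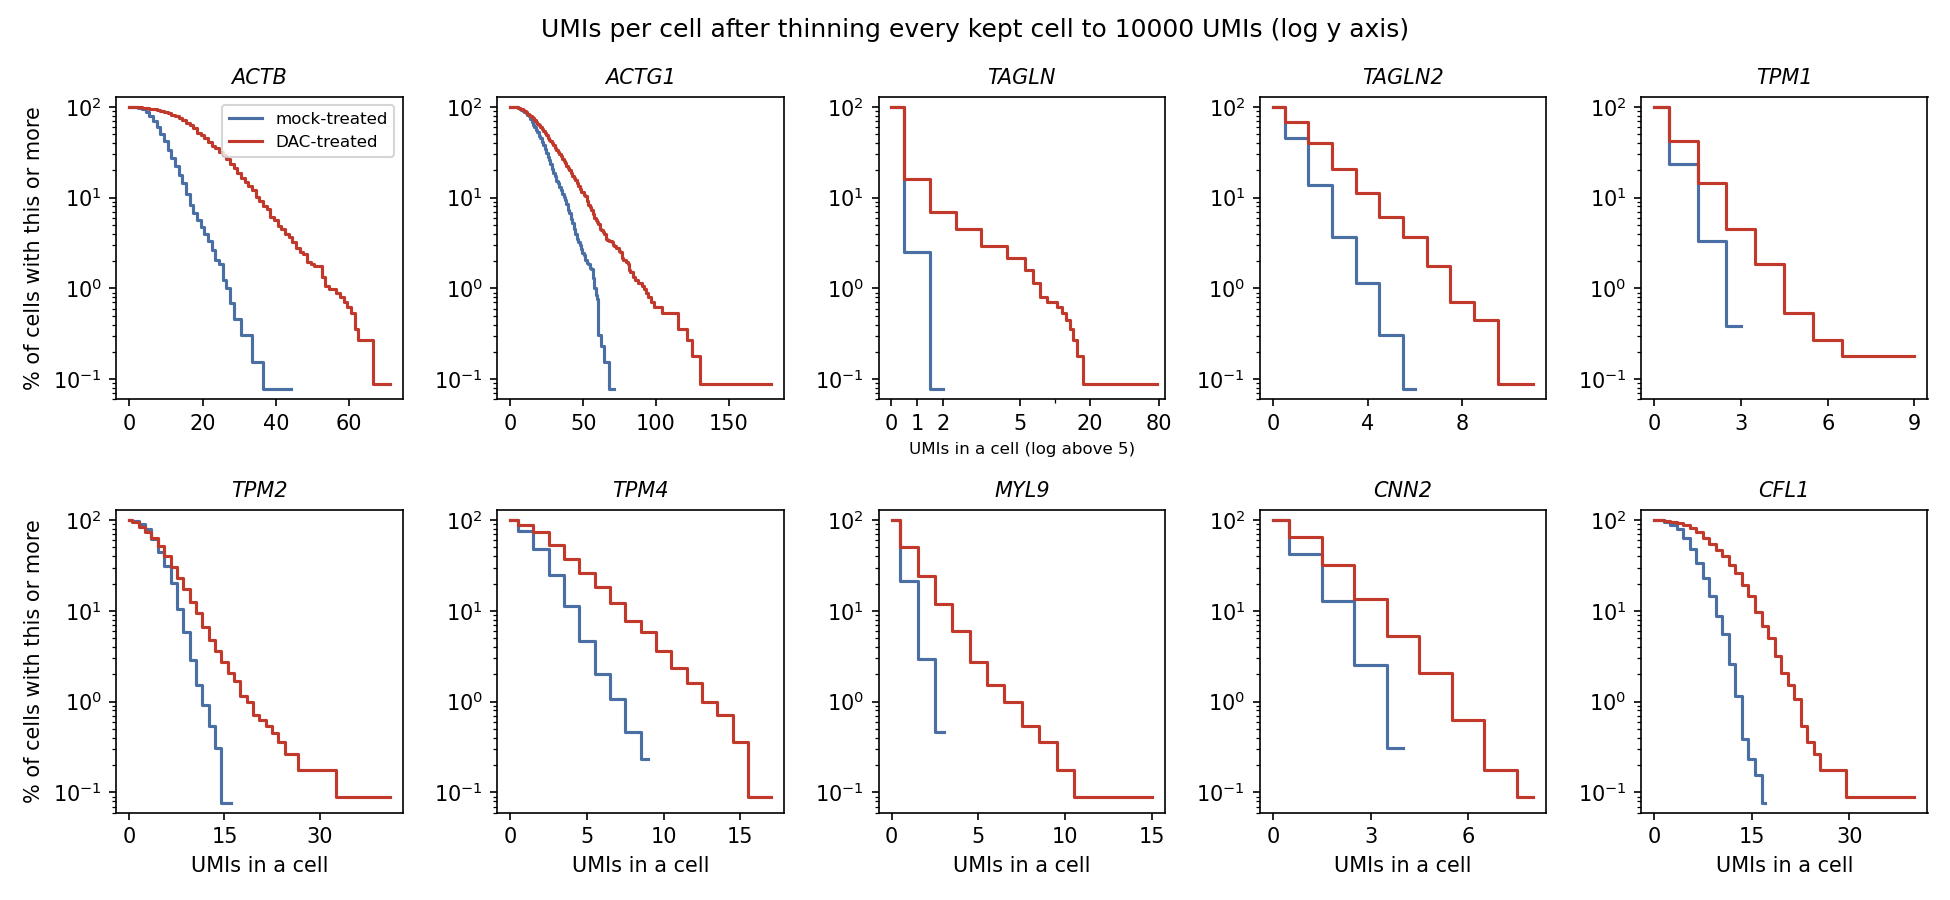
Percent of cells (log axis) with at least the number of UMIs on the horizontal axis, for the 10 genes in 1298 mock-treated (blue) and 1120 DAC-treated (red) cells thinned to 10000 UMIs. The ACTB curves have medians of 9 and 19 UMIs, whereas the TAGLN curves differ in a tail, with a UMI in 2.54% and 16.1% of cells.

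The spread between cells was larger in DAC-treated cells for all 10 genes at 10000 UMIs. The spread of genes outside the set was not computed, so this count is not read as particular to the 10 genes. The squared coefficient of variation beyond Poisson noise, which is 0 if cells differ by counting only, was 0.184 and 0.217 for ACTB and 0.237 and 0.396 for ACTG1 in mock- and DAC-treated cells. For TPM2, whose mean was 4.50 and 5.31 UMIs, it was 0.0637 and 0.392. For MYL9 it was 0.263 and 1.11, and for TPM1 it was 0.120 and 0.750. For TAGLN it was 1.28 and 31.9, and 10.4 without the cell with the most TAGLN UMIs. TAGLN2 had 0.258 and 0.547, TPM4 had 0.202 and 0.380, CNN2 had 0.132 and 0.259, and CFL1 had 0.04998 and 0.127, the lowest value in both libraries. When all cells with 1000 UMIs or more were thinned to 1000 UMIs, the order was not kept for TAGLN2 (1.15 and 0.487) and CFL1 (0.256 and 0.255), and the gap was smaller for TPM2 (0.279 and 0.479). At that depth TPM1 was below 0 in both libraries (-0.96 and -0.13) and TAGLN in mock-treated cells (-0.90), so the measure could not be used for them.

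Per-cell correlation with ACTB was then described. Cells of a library share its depth and reagents, so no p-value is given. The median Spearman correlation of the other 9 genes with ACTB was 0.05 over 1298 mock-treated cells and 0.25 over 1120 DAC-treated cells, and all 9 values were higher in DAC-treated cells. ACTG1 had 0.36 and 0.59, CFL1 had 0.14 and 0.34, and TPM4 had 0.10 and 0.31. TAGLN (-0.05 and 0.26), MYL9 (-0.01 and 0.25), and TPM2 (-0.07 and 0.14) had no positive correlation in these mock-treated cells. Only 2.54% of them had a TAGLN UMI, so the mock-treated value of TAGLN says little. CNN2 (0.08 and 0.19), TAGLN2 (0.05 and 0.14), and TPM1 (0.05 and 0.13) had low values in both. Over the 45 pairs of the 10 genes, the median was 0.03 and 0.13, and 41 pairs were higher in DAC-treated cells. When all cells with 1000 UMIs or more were thinned to 1000 UMIs, all 9 values with ACTB stayed higher in DAC-treated cells. At that depth MYL9 had similar values (0.07 and 0.09), TPM2 had 0.03 and 0.12, and TAGLN had -0.03 and 0.12. The share of all genes or pairs with a higher value in DAC-treated cells was not computed. These counts are therefore not read as particular to the 10 genes.

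The size of these differences depended on the level of the genes. When each gene was thinned further to the lower of its library means, so that ACTB had 9.52 and 9.56 UMIs per cell, the median correlation with ACTB in DAC-treated cells was 0.14 instead of 0.25, against 0.05 in mock-treated cells. All 9 values stayed higher in DAC-treated cells, with 0.50 for ACTG1, 0.11 for TAGLN, and 0.07 for TAGLN2. Without mitochondrial genes in the thinning, the medians were 0.02 and 0.20, and 8 of the 9 were higher, while TAGLN2 had 0.07 in mock-treated and 0.02 in DAC-treated cells. Among 2105 genes with a mean of at least 0.5 UMI in both libraries, the correlation with ACTB had a median of 0.03 in mock-treated and 0.04 in DAC-treated cells and a 95th percentile of 0.15 and 0.22. In that ranking by the mean over both libraries, ACTG1 was first of all genes, CFL1 was at place 20, TPM4 at 46, CNN2 at 213, TAGLN2 at 435, and TPM2 at 1075, and TAGLN, MYL9, and TPM1 were too sparse to be ranked.

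**Figure D4:**
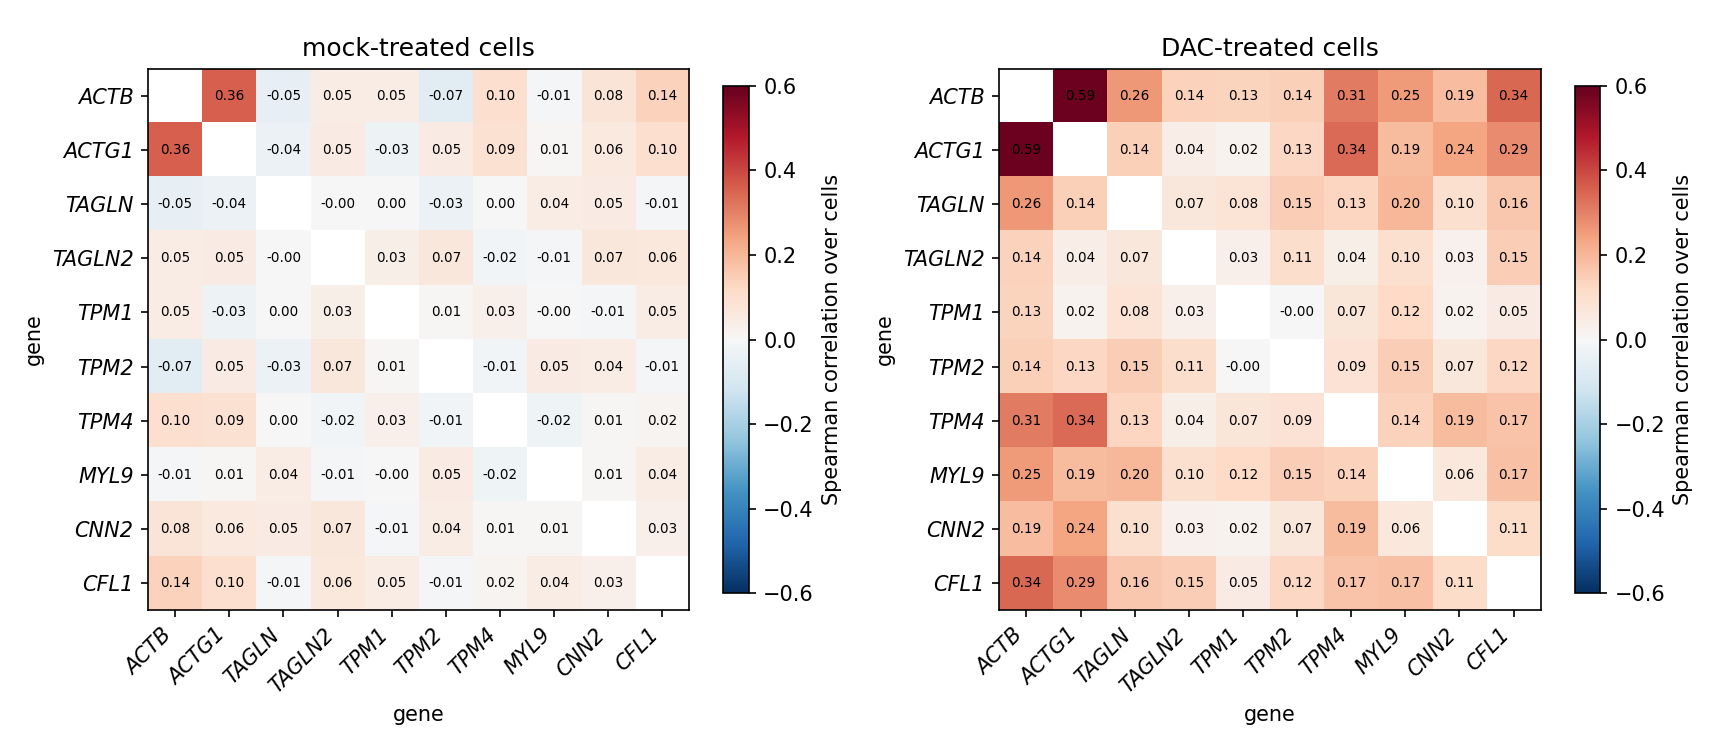
Spearman correlation between the 10 genes over 1298 mock-treated (left) and 1120 DAC-treated (right) cells, each thinned to 10000 UMIs. ACTB and ACTG1 form the strongest pair in both (0.36 and 0.59), and 41 of 45 pairs are higher in DAC-treated cells.

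The 10 genes outside the set that were most like ACTB in this ranking included 4 tubulin genes. TUBA1B had a correlation with ACTB of 0.26 in mock-treated and 0.43 in DAC-treated cells, TUBA1C had 0.26 and 0.37, TUBB4B had 0.22 and 0.35, and TUBB had 0.13 and 0.42, which encode subunits of the microtubule. The others were UBE2S, TK1, HMGB1, UBE2C, EIF5A, and JPT1. In the DAC-treated library, 9 of the 10 tubulin genes with 100 UMIs or more were at least 1.5-fold higher, against 31.3% of all genes, with a median log2 CPM ratio of 1.41. They ranged from TUBG1 (1.38-fold) to TUBB2A (5.13-fold) and TUBB2B, which had 4 and 780 UMIs, a ratio of 165 (64.1 to 606.5). Of 14 G2/M genes, 13 were at least 1.5-fold higher, against the same 31.3%, with a median log2 CPM ratio of 1.04 and a range from CCNB2 (1.04-fold) to CDC20 (2.99-fold).

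ACTB was positively correlated with G2/M genes and negatively with the mitochondrial share of a cell, and their part in the correlations between the 10 genes was not tested. The summed UMIs of the G2/M genes had a Spearman correlation with ACTB of 0.20 in mock-treated and 0.34 in DAC-treated cells, and with ACTG1 of 0.10 and 0.31. For MYL9 the values were -0.02 and -0.01, and for TPM1 they were 0.01 and -0.05. The mitochondrial percentage of a cell had a correlation with ACTB of -0.26 and -0.39, and with ACTG1 of -0.04 and -0.44. In DAC-treated cells, CFL1 had 0.21 with G2/M genes and -0.30 with the mitochondrial percentage, TPM4 had 0.15 and -0.22, and CNN2 had 0.18 and -0.14. The median of G2/M UMIs per cell at 10000 UMIs was 1 in mock-treated and 22 in DAC-treated cells, and 46.1% and 85.7% of cells were above 1, with 833 and 228 cells within 1 UMI of this bound. In the cells at or below 1 (699 mock-treated and 160 DAC-treated cells), the CPM ratio was 1.93 for ACTB, 1.09 for ACTG1, 4.03 for MYL9, 2.70 for TPM1, and 1.59 for CFL1. These included the DAC-treated cell with the most TAGLN UMIs. Without it, the ratios were 1.86, 1.04, 3.30 (2.97 to 3.68), 2.47, and 1.57 for the same genes. In the cells above 1, the CPM ratios were 2.02, 1.30, 4.58, 2.60, and 1.63. TAGLN had 66 and 903 UMIs in the cells at or below 1, a ratio of 42.3, but 792 of these UMIs came from the single cell with the most, and without it the ratio was 5.27 (3.85 to 7.26). In the cells above 1, the ratio of TAGLN was 26.5 (19.4 to 37.2). Both ranges were cut on a measure that itself differed between the libraries, so these ratios describe the ranges only.

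Depth was handled in the same way. In cells with 10000 to 25000, 25000 to 40000, and 40000 or more UMIs, the ratio of ACTB was 2.25, 2.23, and 2.03, and that of MYL9 was 3.48, 3.79, and 4.47. That of TAGLN was 14.1 (7.38 to 29.2), 18.0 (13.3 to 25.1), and 26.6 (20.04 to 36.2), the last of which was 18.4 (13.8 to 25.1) without the single cell with the most TAGLN UMIs. That of TPM1 was 1.59, 2.57, and 2.81. CFL1 was below 1.5-fold in the shallowest cells (1.33) and above it in the others (1.65 and 1.72). In the 485 mock-treated and 631 DAC-treated cells left out for few UMIs or a high mitochondrial share, TAGLN had 12 and 44 UMIs, a ratio of 2.24 (1.16 to 4.67), and CNN2 had a ratio of 1.15 (0.870 to 1.54), whereas ACTB was 1.89-fold, MYL9 4.14-fold (2.48 to 7.35), and TPM2 1.67-fold (1.48 to 1.88) higher. The median log2 CPM ratio of all genes was 0.48 in these cells.

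The wider actin machinery was then described. Of 118 other actin-related genes with 100 UMIs or more, from 9 lists of known function, 37 (31.4%) were at least 1.5-fold higher and 14 (11.9%) at least 1.5-fold lower, with a median log2 CPM ratio of 0.34, close to the values for all genes. The counts of each list are to be set beside these shares of all genes, 31.3% higher and 13.7% lower, and the all-gene median log2 CPM ratio of 0.25. These lists were drawn up with earlier results of these libraries known.

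Among the closest relatives, the 4 paralogs of the tropomyosins, transgelins, and calponins (TPM3, TAGLN3, CNN1, and CNN3) were at least 1.5-fold higher. Those of MYL9 and CFL1 were not, with ratios of 1.11 for MYL12A, 1.26 for MYL12B, 1.47 for CFL2, and 1.44 for DSTN. CNN1 had 2 and 143 UMIs, a ratio of 60.4 (16.4 to 503.9), TAGLN3 had 13 and 101 UMIs, a ratio of 6.57, and CNN3 had a ratio of 1.59. CALD1, listed with them but not a paralog, went the other way with 175.5 and 117.7 CPM, a ratio of 0.671. Of the muscle actins, only ACTA2 had 100 UMIs or more, with 274 and 317 UMIs and a ratio of 0.978 (0.829 to 1.15). ACTG2, the other smooth muscle actin, had 3 and 25 UMIs, a ratio of 7.04 (2.15 to 36.4), and ACTA1, of skeletal muscle, had 7 and 29 UMIs, a ratio of 3.50 (1.501 to 9.47). The muscle actins thus did not share 1 pattern.

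Nonmuscle myosin II and its regulators had 4 of 15 genes higher and none lower, not above the 31.3% of all genes. They were MYL6 (2.76-fold), the essential light chain, MYH9 (1.77-fold), a heavy chain, and the kinases MYLK (1.63-fold) and ROCK2 (1.53-fold), whereas MYL6B was at 0.697-fold. Proteins that bind monomers or turn over filaments had 6 of 18 genes higher and 2 lower, near the 31.3% and 13.7% of all genes. Higher were LIMK2 (2.32-fold), which inactivates cofilin, COTL1 (2.26-fold), GMFB (1.95-fold), CAP1 (1.76-fold), WDR1 (1.69-fold), a cofilin cofactor, and SSH2 (1.58-fold), and lower were SSH3 (0.566-fold), of the phosphatase family that reactivates cofilin, and TWF2 (0.572-fold).

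The Arp2/3 complex and the nucleators, which start new filaments, had 5 of 19 genes higher and 3 lower, also near those 31.3% and 13.7%. The subunits ARPC5 (2.18-fold) and ARPC5L (2.09-fold) and the formins FMNL3 (1.95-fold), DIAPH1 (1.93-fold), and DIAPH3 (1.83-fold) were higher, and DIAPH2 (0.520-fold), FMNL2 (0.542-fold), and ARPC1B (0.647-fold) were lower. Both directions thus occurred within the formins and within the subunits of 1 complex. Of 11 capping and severing genes, 2 were higher and 2 lower, against 31.3% and 13.7% of all genes. SCIN (3 and 166 UMIs, 46.8-fold, 15.7 to 229.1) and TMOD1 (3.12-fold) were higher and CAPG (0.570-fold) and EPS8 (0.647-fold) were lower.

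Cross-linking and bundling genes had 6 of 12 higher and none lower, against 31.3% and 13.7% of all genes, with a median log2 CPM ratio of 0.63 against 0.25. FLNA (2.55-fold) and FLNC (2.24-fold) encode filamins, SPTAN1 (2.54-fold) and SPTBN1 (2.18-fold) encode spectrins, and PLS3 (1.73-fold) and FSCN1 (1.70-fold) encode bundling proteins. PLS1 had the lowest ratio (0.736-fold). Of 21 membrane and adhesion linkers, 6 were higher, not above the 31.3% of all genes, and LIMA1 was lower (0.656-fold). PDLIM4 had 7 and 1926 UMIs, a ratio of 233, and PDLIM1 (2.19-fold), PARVA (2.01-fold), CSRP1 (1.97-fold), ILK (1.94-fold), and TLN1 (1.62-fold) followed.

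SRF, MRTF, and other genes known as their targets were split. SRF itself had a ratio of 0.938, MRTFA of 1.93, and MRTFB of 0.917 (0.831 to 1.01). THBS1 (13.1-fold), ANKRD1 (10.3-fold), and CCN2 (4.82-fold) were higher, whereas the immediate early genes EGR2 (0.0911-fold), EGR3 (0.0974-fold), FOSB (0.120-fold), FOS (0.214-fold), EGR1 (0.284-fold), and JUNB (0.359-fold) were lower. In this list 4 of 16 genes were higher and 6 lower, against 31.3% and 13.7% of all genes, and its median log2 CPM ratio was -0.16 against 0.25.

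**Figure D5:**
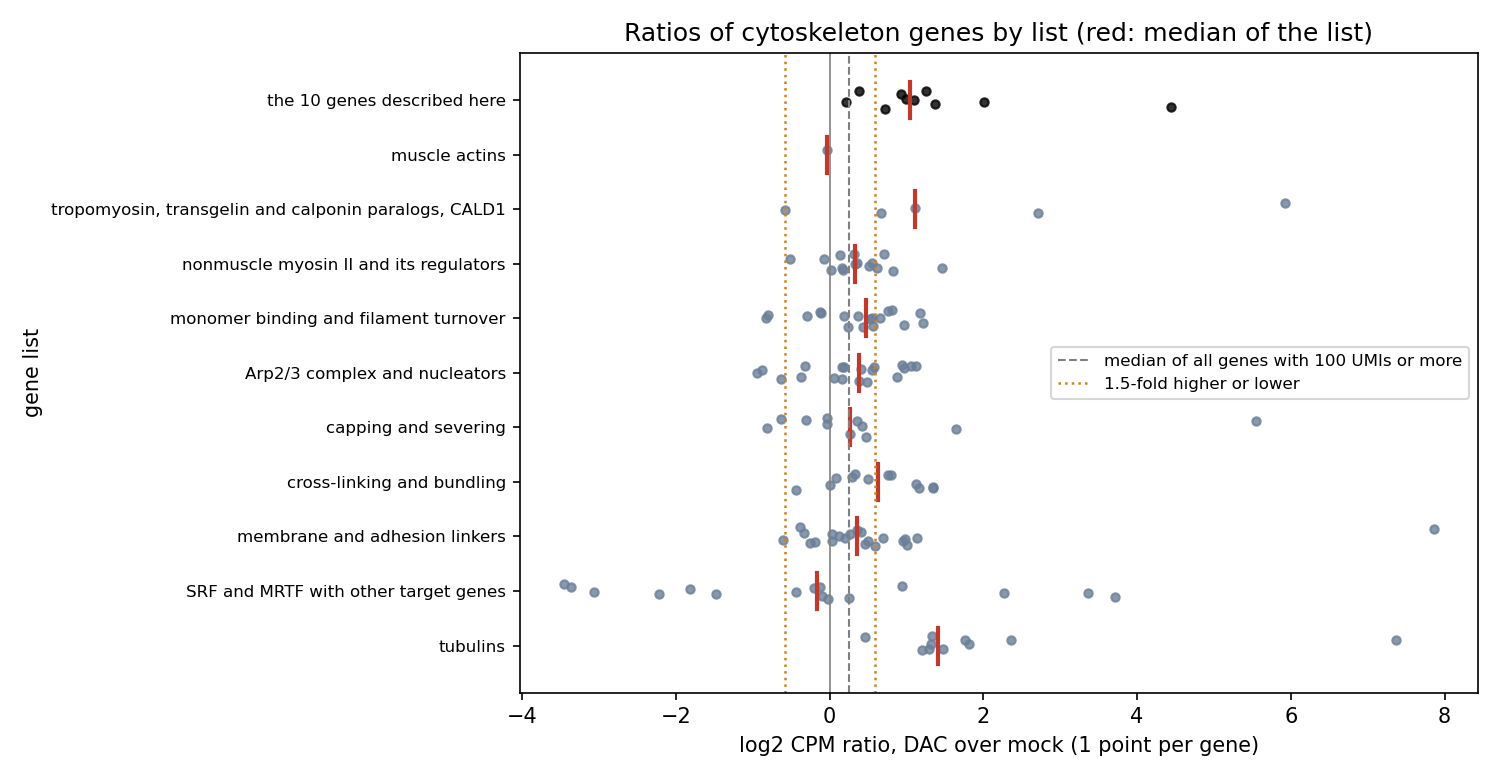
log2 CPM ratio (DAC over mock) of the 10 genes and of the genes with 100 UMIs or more in 10 related lists, with 1 point per gene and the median of each list in red. The 10 genes have a median of 1.04 and the tubulins of 1.41, whereas the SRF and MRTF list spans both directions with a median of -0.16.

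Markers of other cell types were low but not equal between the libraries. The summed CPM of 6 smooth muscle markers was 3.73 in mock-treated and 14.1 in DAC-treated cells, with DES at 133 and 596 UMIs, MYH11 at 17 and 46, ACTG2 at 3 and 25, and CNN1 at 2 and 143. LMOD1 (7 and 4 UMIs) and SYNPO2 (24 and 16 UMIs) had lower counts in the DAC-treated library. The summed CPM of 7 fibroblast markers was 10.9 and 25.6, with COL1A1 at 533 and 1112 UMIs and THY1 at 1 and 332, and with COL1A2, DCN, and LUM at 0 in mock-treated cells. COL3A1 had 5 and 5 UMIs, and PDGFRB had 5 and 16. The summed CPM of 5 blood and endothelial markers was 6.55 and 11.4. CD68 held most of it, at 321 and 525 UMIs, and VWF was at 6 and 62 UMIs. PTPRC, CD3E, and PECAM1 were at 0 in mock-treated cells and at 16, 24, and 46 UMIs in DAC-treated cells. The part of these markers in the ratios of TAGLN and MYL9 was not tested.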

How the data were processed

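Per the submitters' processing notes, reads were processed using Cell Ranger on hg38. The deposited values were raw UMI counts for each gene in each cell, and the annotation release and any filter on cells are not given in the sources used here. Reads come from the 3′ end, and genes were matched by Ensembl identifier, with positions from the hg38 GENCODE annotation. CPM, ratios, and correlations were computed in Python 3.11.15 with scipy 1.17.1, pandas 2.3.3, and numpy 2.4.6, and figures were drawn with matplotlib 3.10.9. With 1 library per condition, no test was conducted. UMI sums had exact Poisson intervals, shares had Clopper-Pearson intervals, and ratios had conditional binomial intervals. Both libraries shared 12 barcodes. Doublets were not called, and the deepest 5% of cells were left out as an alternative. The members and lists were chosen with earlier results of these data known. Named were the 10 genes, their family paralogs, SRF and its cofactors, the cell type markers, and the 10 nearest genes to ACTB. Also named were the extremes and up to 5 genes past 1.5-fold per direction in each list, and the remaining genes past it where there were 6. The scripts were tested on simulated data.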

Additional observations from a re-analysis of the deposited data

How the results depend on the processing

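Median-of-ratios scaling, which lowers every log2 ratio by 0.24, gave a median log2 CPM ratio of the 10 genes of 0.81 instead of 1.04, reversed TPM2 (log2 ratio, -0.022), and left 7 of the 10 genes at least 1.5-fold higher. Under this scaling 21.3% of all genes were at least 1.5-fold higher and 21.0% lower. A threshold of 2-fold left 5 genes. Without the 5% of cells with the most UMIs, without mitochondrial genes, with kept cells alone, with thinned cells, with mean per-cell CPM, and without the DAC-treated cell with the most TAGLN UMIs (chosen after seeing the data), 8 genes were at least 1.5-fold higher and 0 lower. The median correlation with ACTB in DAC-treated cells was 0.12 at 1000 UMIs per cell, 0.20 without mitochondrial genes (0.022 in mock-treated cells), and 0.14 with members at equal means, which was chosen after seeing the data, as were the ranges of depth and of G2/M UMIs. The log2 CPM ratio of TAGLN ranged from 1.17 in the cells left out to 5.40 in cells low in G2/M UMIs, where 1 cell held most TAGLN UMIs. No paired analysis was possible because each condition had 1 library. Spread between cultures was not measured, and sparse genes such as TAGLN in mock-treated cells are limited by depth.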
